A study of Mus musculus with 768 samples.

Results

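The lymphotoxin receptor and its non-canonical NF-kB pathway were described in mouse endothelial cells as 8 genes, chosen by symbol from the 51734 features counted: the receptor Ltbr, the adaptors and ubiquitin ligase Traf2, Traf3 and Birc2, the kinases Map3k14 and Chuk, and the transcription factor genes Nfkb2 and Relb. The study asked how endothelial cells of tumours compare with the high endothelial venules (HEVs) of lymph nodes, the vessels through which lymphocytes leave the blood. Single cells were sorted in 3 gates and sequenced with Smart-seq2, a method that copies whole transcripts. TU_HEV were CD45-CD31+MECA79+ cells from PyMT tumours, which arise in the mammary gland of mice with that transgene, on the plates pool3 and pool4. LN_HEV were CD45-CD31+MECA79+ cells of lymph node (pool1 and pool2), and TU_EC were CD45-CD31+MECA79- cells from PyMT tumours (poolA to poolD). MECA79 is an antibody to sulfated glycans that mark HEVs. The labels give no genotype beyond the PyMT tumour, no strain, age, treatment or animal for any group, so each group was 1 sample without replicates, no test was made, and intervals below cover counting error only.

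In the resting cell, TRAF3 and TRAF2 hold the ubiquitin ligase cIAP1, made from Birc2, next to NIK, the kinase made from Map3k14, so that NIK is degraded as fast as it is made. Binding of lymphotoxin to its receptor draws TRAF2 and TRAF3 away, NIK accumulates and activates the kinase IKK-alpha (Chuk), and the precursor made from Nfkb2 is cut to a subunit that enters the nucleus with RelB (Relb). In lymph nodes this route is known to keep HEVs in their mature state, with their sulfated glycans and homing chemokines. Most of these steps act on proteins, which were not measured.

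After filtering, 98 cells of TU_HEV were analysed (50 of pool3 and 48 of pool4), with 63 cells of pool1 and 80 of pool2 for LN_HEV, and 68, 81, 82 and 72 cells of poolA to poolD for TU_EC. The median cell had 1431389 counts in TU_HEV, 1056419 in LN_HEV and 625611 in TU_EC, and ribosomal RNA took 8.09%, 13.5% and 25.3% of the counts. The pan-endothelial markers Pecam1, Cdh5, Tie1, Egfl7 and Eng were present in all groups (summed level by plate 6472 to 6996 CPM, counts scaled by the total, in TU_HEV, 4192 to 6174 in LN_HEV and 5427 to 6251 in TU_EC), and Chst4, the sulfotransferase that makes the MECA79 epitope, had no count in TU_EC. Before any comparison, 11 libraries of pool1 were left out of LN_HEV because, for 19 TU_HEV libraries, nearly every count recurred in 1 of them in the same gene. The plates of TU_EC were counted in another file than those of both HEV groups, so a difference between the files and a difference from TU_EC cannot be told apart.

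Among the promoters, those of Nfkb2 and Traf3 carried the NF-kB consensus, the motif of 10 bases that NF-kB dimers bind. Windows around gene starts were taken from RefSeq (GRCm38.p6) and matched 7 of the 8 genes, with 10 windows in all, and Relb was not among them. The consensus was searched by name on both strands, counting overlapping matches. Of the 10 windows, 4 held a match, 3 of Nfkb2 and 1 of Traf3, against 4.51% of all windows of the same length. By gene, 2 of the 7 members had a match in a window, against 5.14% of all genes. The first Nfkb2 window held 3 matches, where 0.554% of all windows held 2 or more. Its first 2 matches overlap and begin 39 and 38 bases before the annotated start, and the third begins 11 bases before it. The second window, at a later start, held a match at its upstream end and another beginning 10 bases after that start. The Traf3 match began 10 bases before the start. The 3 sequences are shown because these are the windows with matches that do not repeat each other, 5′ to 3′ on the strand of the gene, with matches in capitals. The third Nfkb2 window overlaps the second and holds its last match. A match describes the letters only and is no measurement of binding. They lie at chr19:46304487-46304786 (plus strand), chr19:46305445-46305744 (plus strand) and chr12:111166120-111166419 (plus strand).
Nfkb2, first window: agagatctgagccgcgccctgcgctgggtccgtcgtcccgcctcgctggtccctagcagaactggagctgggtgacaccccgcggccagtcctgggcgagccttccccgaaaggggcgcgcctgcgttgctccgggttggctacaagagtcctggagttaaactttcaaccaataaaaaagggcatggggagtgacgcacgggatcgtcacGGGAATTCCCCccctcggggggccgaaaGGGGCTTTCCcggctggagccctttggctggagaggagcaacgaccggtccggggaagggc
Nfkb2, second window: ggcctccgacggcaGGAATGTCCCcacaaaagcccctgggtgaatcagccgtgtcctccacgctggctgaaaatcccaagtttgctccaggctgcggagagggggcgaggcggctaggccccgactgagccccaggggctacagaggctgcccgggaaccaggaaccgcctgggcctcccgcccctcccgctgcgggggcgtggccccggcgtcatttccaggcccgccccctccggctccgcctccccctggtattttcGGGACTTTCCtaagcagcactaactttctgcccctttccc
Traf3: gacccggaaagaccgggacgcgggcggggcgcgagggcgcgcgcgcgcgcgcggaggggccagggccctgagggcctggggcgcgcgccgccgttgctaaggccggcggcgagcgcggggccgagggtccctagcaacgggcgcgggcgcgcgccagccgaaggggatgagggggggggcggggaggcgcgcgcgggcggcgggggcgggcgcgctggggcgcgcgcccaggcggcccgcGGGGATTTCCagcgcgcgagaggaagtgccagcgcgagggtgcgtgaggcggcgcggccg

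Across the 3 groups, the transcription factor genes and Birc2 were graded, with TU_HEV between LN_HEV above and TU_EC below, and no plate of one group reached into the range of another. The receptor ran differently, since it was higher in both kinds of tumour cell than in LN_HEV. Map3k14 was level between the HEV groups and lower in TU_EC, while Chuk was highest in TU_HEV. Levels are given as CPM, the counts of a gene summed over the cells of a group or plate and scaled by their total.

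**Figure D1:**
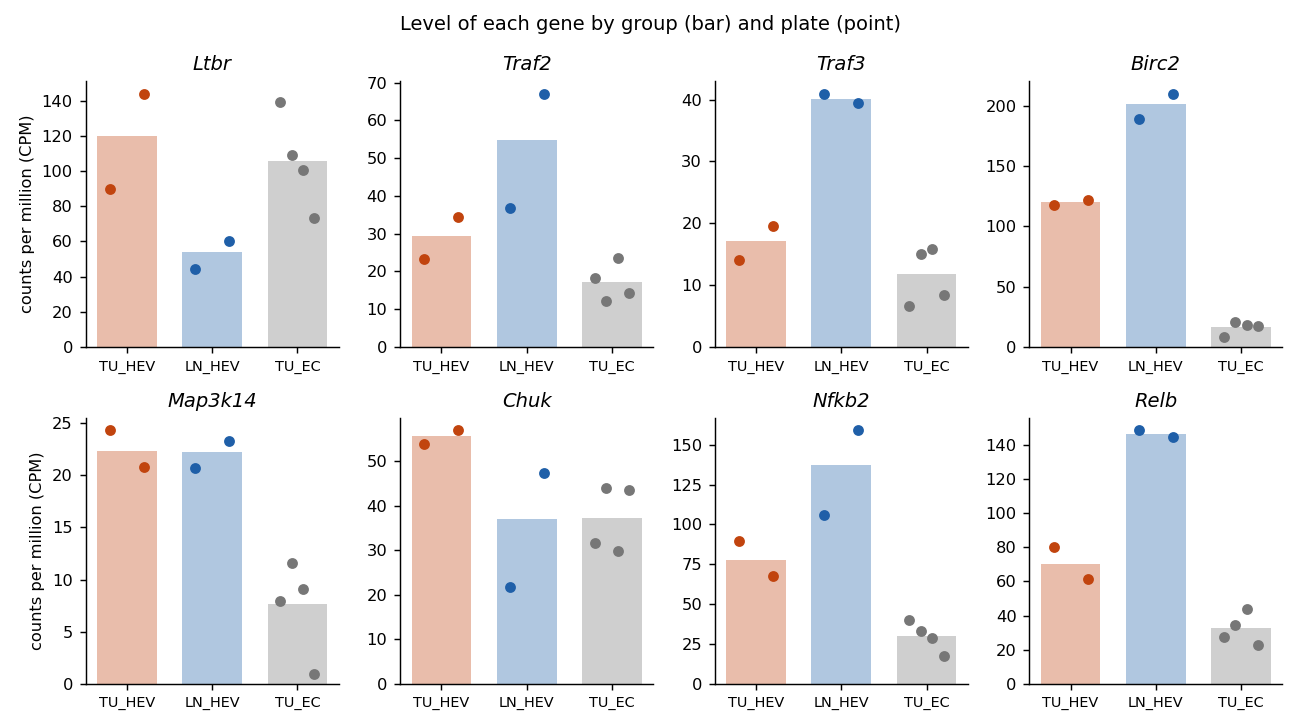
Level of each of the 8 genes in CPM, with a panel and a linear axis for each gene. Bars are the sum over a group and points its plates (2 for TU_HEV, 2 for LN_HEV, 4 for TU_EC). Birc2, Nfkb2 and Relb have their TU_HEV points between those of LN_HEV and TU_EC with no overlap, and Ltbr has its lowest points in LN_HEV.

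Ltbr (ENSMUSG00000030339, chr6:125306571-125313885) encodes the receptor for lymphotoxin and LIGHT. It had 89.8 and 143.9 CPM on the TU_HEV plates, 44.3 and 60.1 CPM on the LN_HEV plates, and 138.9, 109.2, 100.8 and 73.3 CPM on the TU_EC plates. Both TU_HEV plates stood above both LN_HEV plates, whereas the TU_HEV and TU_EC plates overlapped. The group level was 2.24-fold higher in TU_HEV than in LN_HEV (95% counting interval 2.18 to 2.30, plate pairs 1.496 to 3.25). The ratio was under 2-fold in some settings: 1.90 with the 11 left-out libraries kept, and on the log2 scale 0.74 without pool4 and 0.88 with median-of-ratios size factors, against 1.16. Against TU_EC the TU_HEV level was 1.14-fold higher, and over plate pairs the log2 ratio ran between -0.63 and 0.97, so the tumour groups were not set apart. LN_HEV was 1.97-fold lower than TU_EC (1.92 to 2.02, plate pairs 1.22 to 3.14). At equal depth (each cell thinned to 100000 counts, ribosomal RNA included) 57.1% of TU_HEV cells had a count of Ltbr (exact 95% interval 46.7 to 67.1%), with 47.2% of LN_HEV cells (38.8 to 55.7%) and 59.0% of TU_EC cells (53.2 to 64.6%). The intervals of the 3 shares overlapped.

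Traf2 (ENSMUSG00000026942, chr2:25517982-25546940) encodes the adaptor that brings cIAP1 to the complex. It had 23.2 and 34.4 CPM on the TU_HEV plates, 36.8 and 67.1 CPM on the LN_HEV plates, and 18.3, 12.2, 23.6 and 14.3 CPM on the TU_EC plates. TU_HEV was 1.86-fold lower than LN_HEV (1.79 to 1.93), with no overlap but a close approach of pool4 to pool1, and its plates overlapped those of TU_EC. Traf3 (ENSMUSG00000021277, chr12:111166370-111267153) encodes the adaptor that binds NIK itself. Its level was 14.0 and 19.5 CPM on the TU_HEV plates, 41.0 and 39.5 CPM on the LN_HEV plates, and 6.61, 15.0, 15.9 and 8.39 CPM on the TU_EC plates. Traf3 was 2.35-fold lower in TU_HEV than in LN_HEV (2.24 to 2.46), and at least 2.02-fold lower in every plate pair, the one member of which this was true. TU_HEV and TU_EC overlapped for Traf3, while LN_HEV stood 3.40-fold above TU_EC (3.24 to 3.56).

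Birc2 (ENSMUSG00000057367, chr9:7818227-7837064) encodes cIAP1, which marks NIK for degradation, and it separated both HEV groups from TU_EC most widely among the members. It had 117.9 and 121.6 CPM on the TU_HEV plates, 189.03 and 210.1 CPM on the LN_HEV plates, and 8.59, 20.5, 18.5 and 17.0 CPM on the TU_EC plates. The TU_HEV level was 7.29-fold that of TU_EC (7.04 to 7.56, plate pairs 5.74 to 14.2), and LN_HEV was 12.3-fold above TU_EC (11.8 to 12.7, plate pairs 9.20 to 24.5). TU_HEV was 1.68-fold below LN_HEV (1.65 to 1.71, plate pairs 1.55 to 1.78), the narrowest range over plates of any member that was lower. At equal depth a count was found in 44.9% of TU_HEV cells (34.8 to 55.3%), 78.9% of LN_HEV cells (71.2 to 85.3%) and 11.7% of TU_EC cells (8.26 to 15.9%). Thus most LN_HEV cells, fewer TU_HEV cells and few TU_EC cells had a count. The single-cell maximum was 1749 CPM in TU_HEV, 983.5 in LN_HEV and 347.3 in TU_EC.

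Map3k14 (ENSMUSG00000020941, chr11:103219762-103267472) encodes NIK, the kinase on which the route turns. Its level was 24.3 and 20.8 CPM on the TU_HEV plates, 20.7 and 23.3 CPM on the LN_HEV plates, and 7.94, 11.6, 9.11 and 0.965 CPM on the TU_EC plates. The HEV groups overlapped, with a ratio of 1.00 (0.956 to 1.05), and both stood above all TU_EC plates. TU_HEV was 2.91-fold above TU_EC (2.75 to 3.09). Few cells carried these counts, 14.3% of TU_HEV cells, 14.8% of LN_HEV cells and 8.33% of TU_EC cells at equal depth, and the 3 highest cells of a group held 54.9% of all Map3k14 counts in TU_HEV, 34.7% in LN_HEV and 28.1% in TU_EC. Chuk (ENSMUSG00000025199, chr19:44073335-44107480) encodes IKK-alpha. It had 53.8 and 56.9 CPM on the TU_HEV plates, 21.8 and 47.4 CPM on the LN_HEV plates, and 31.5, 44.1, 29.9 and 43.6 CPM on the TU_EC plates. Both TU_HEV plates were above all others, by 1.5-fold against LN_HEV (1.45 to 1.55) and 1.49-fold against TU_EC (1.44 to 1.54). The log2 ratio to LN_HEV was 0.59, but 1.35 without pool2, 0.23 without pool1 and 0.25 without the 20 highest features. The log2 ratio to TU_EC was 0.57, but 0.16 with size factors and 0.28 without ribosomal RNA. LN_HEV and TU_EC overlapped for Chuk, and the 3 highest cells held 39.0% of its counts in TU_HEV.

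Nfkb2 (ENSMUSG00000025225, chr19:46304320-46312385) encodes the precursor that NIK and IKK-alpha cause to be cut. It had 89.9 and 67.8 CPM on the TU_HEV plates, 105.9 and 159.1 CPM on the LN_HEV plates, and 39.7, 33.1, 28.7 and 17.4 CPM on the TU_EC plates. TU_HEV was 1.77-fold lower than LN_HEV (1.73 to 1.82, plate pairs 1.18 to 2.35) and 2.60-fold higher than TU_EC (2.52 to 2.68, plate pairs 1.71 to 5.18). LN_HEV was 4.61-fold above TU_EC (4.49 to 4.74). Shares of cells with a count followed the same order, at 45.9% in TU_HEV (35.8 to 56.3%), 66.9% in LN_HEV (58.5 to 74.6%) and 21.3% in TU_EC (16.8 to 26.4%).

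Relb (ENSMUSG00000002983, chr7:19606217-19629438) encodes the partner of the processed Nfkb2 product. It had 80.5 and 61.7 CPM on the TU_HEV plates, 148.8 and 144.96 CPM on the LN_HEV plates, and 27.4, 34.6, 44.0 and 22.4 CPM on the TU_EC plates. TU_HEV was 2.09-fold lower than LN_HEV (2.04 to 2.14, plate pairs 1.80 to 2.41), and 1.96-fold lower with the 11 left-out libraries kept (log2 ratio -1.06, or -0.86 without pool4). Against TU_EC it was 2.14-fold higher (2.08 to 2.21, plate pairs 1.404 to 3.59, log2 ratio 1.10, or 0.92 without pool3 and 0.68 with size factors), and LN_HEV was 4.48-fold above TU_EC (4.36 to 4.60). At equal depth 32.7% of TU_HEV cells had a count of Relb (23.5 to 42.9%), with 62.7% of LN_HEV cells (54.2 to 70.6%) and 17.0% of TU_EC cells (12.9 to 21.7%). The median cell was at 0 CPM in TU_HEV, 64.5 CPM in LN_HEV and 0 CPM in TU_EC, so a count of Relb was the usual state in LN_HEV alone.

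**Figure D2:**
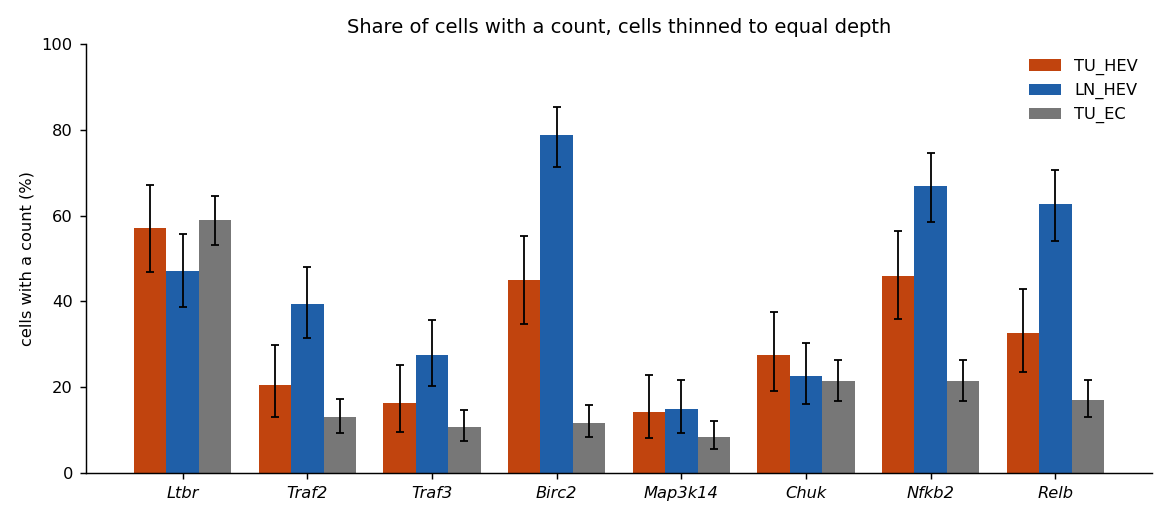
Share of cells with at least 1 count of each gene after each cell was thinned to 100000 counts, in percent. Bars are groups and error bars exact 95% binomial intervals (counting error only). Birc2, Nfkb2 and Relb have LN_HEV shares of 78.9%, 66.9% and 62.7%, with TU_HEV between LN_HEV and TU_EC.

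Levels were compared between genes only per kilobase of exon. In TU_HEV the receptor was the highest member at 51.0 CPM per kilobase, ahead of Birc2 at 26.2, Relb at 18.0 and Nfkb2 at 16.9. In LN_HEV Birc2 led at 44.0 CPM per kilobase, followed by Relb at 37.7 and Nfkb2 at 30.0, with Ltbr at 22.8. In TU_EC Ltbr led at 44.8 CPM per kilobase, and the next member, Relb, had 8.42. Map3k14 and Traf3 were the lowest pair of members in every group, at 3.41 and 2.33 CPM per kilobase in TU_HEV, 3.40 and 5.46 in LN_HEV, and 1.17 and 1.61 in TU_EC. The receptor therefore outranked its transcription factors per length in tumour cells, and ranked below them in LN_HEV.

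Each comparison was read against all genes with at least 1 CPM in the higher group. Between TU_HEV and LN_HEV, 1 of the 8 members was at least 2-fold higher (Ltbr), against 27.1% of all genes tested, and 2 were at least 2-fold lower (Relb and Traf3), against 15.2%. Asking for 2-fold in every plate pair left no member higher (11.3% of all genes) and Traf3 lower (6.8%). The members' median log2 ratio was -0.79 (plate pairs -0.88 to -0.37), with a median of 0.30 over all genes tested. Traf2, Traf3, Birc2, Nfkb2 and Relb were lower in TU_HEV in all 4 plate pairs, without a 2-fold limit. The share of all genes lower by this looser rule was not counted, so nothing is read from how many members met it. Between TU_HEV and TU_EC, 4 members were at least 2-fold higher (Birc2, Map3k14, Nfkb2 and Relb), against 25.7% of all genes, and none was lower, against 13.1%. In every plate pair this was so for Birc2 (6.09% of all genes) and for no member in the lower direction (3.23%). The median log2 ratio was 0.94 (0.74 to 1.36), with 0.40 over all genes.

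Between LN_HEV and TU_EC, 6 members were at least 2-fold higher, against 21.9% of all genes, and none was lower, against 20.6%. Of these, 4 (Birc2, Nfkb2, Relb and Traf3) were so in every plate pair, against 7.44%, with none in the lower direction, against 8.3%. The median log2 ratio was 1.72 (1.27 to 2.46), with 0.13 over all genes. The comparisons share their groups, so their ratios are not independent of each other. Scaling by median-of-ratios size factors moved the median of all genes by -0.28, -0.42 and -0.13 on the log2 scale in TU_HEV against LN_HEV, TU_HEV against TU_EC and LN_HEV against TU_EC. Under it, the Ltbr log2 ratio of TU_HEV to TU_EC was -0.23 instead of 0.19.

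**Figure D3:**
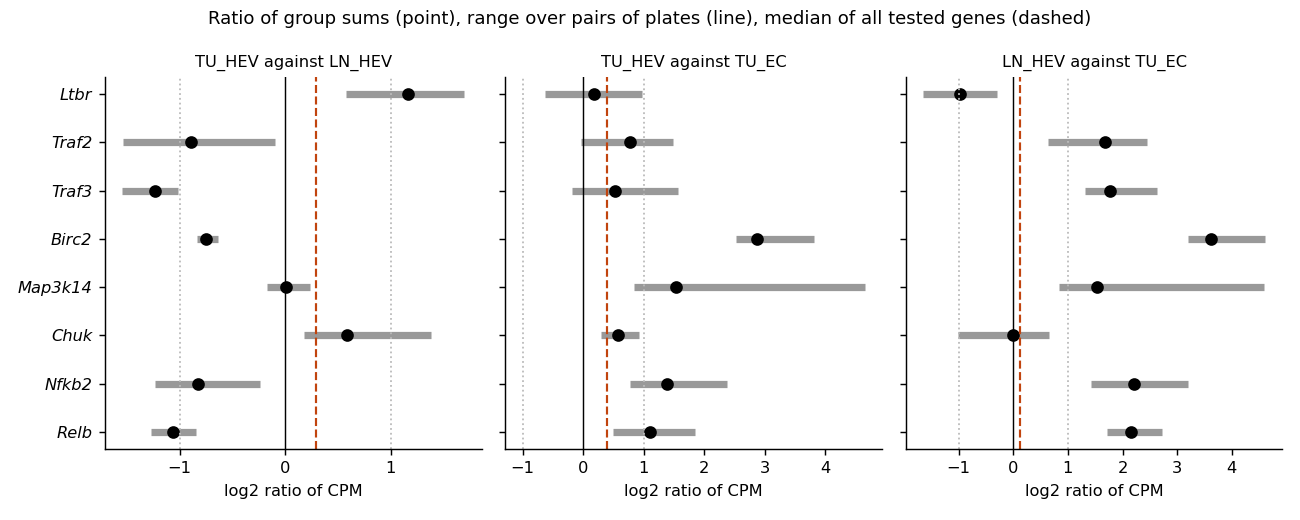
Log2 ratio of CPM for each gene in the 3 comparisons, each panel with its own axis. Points are ratios of group sums, grey lines the range over plate pairs, the dashed line the median of all genes tested (0.30, 0.40 and 0.13), and dotted lines mark 2-fold. In the first panel the receptor is to the right while Traf3, Relb, Traf2, Nfkb2 and Birc2 are to the left of 0.

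The non-canonical subunits were also set against their canonical partners within the same cells, which needs no scaling between groups. Nfkb1 and Rela encode the subunits that canonical signals release. Counts of Nfkb2 per count of Nfkb1 were 0.713 in TU_HEV (0.696 to 0.731), 2.54 in LN_HEV (2.47 to 2.60) and 0.479 in TU_EC (0.465 to 0.493). By plate they were 0.788 and 0.648 in TU_HEV, 1.68 and 3.31 in LN_HEV, and 0.719, 0.533, 0.447 and 0.259 in TU_EC. The TU_HEV plates lay below 1 and partly within the range of TU_EC, and both LN_HEV plates lay above 1. The ratio was 3.56-fold lower in TU_HEV than in LN_HEV (plate pairs 2.13 to 5.10).

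Counts of Relb per count of Rela behaved alike, at 0.541 in TU_HEV (0.528 to 0.554), 1.98 in LN_HEV (1.94 to 2.03) and 0.338 in TU_EC (0.329 to 0.347). By plate they were 0.663 and 0.454 in TU_HEV, 2.78 and 1.65 in LN_HEV, and 0.207, 0.505, 0.453 and 0.234 in TU_EC. The ratio was 3.67-fold lower in TU_HEV than in LN_HEV (plate pairs 2.49 to 6.13), and 2.83-fold lower with the 11 left-out libraries kept. The denominators differed as well: Nfkb1 had 108.7, 54.2 and 62.2 CPM and Rela 129.5, 73.9 and 96.9 CPM in TU_HEV, LN_HEV and TU_EC. On this measure the TU_HEV plates overlapped those of the other tumour cells, with group ratios 1.49-fold (Nfkb2) and 1.60-fold (Relb) above TU_EC, and did not reach LN_HEV.

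**Figure D4:**
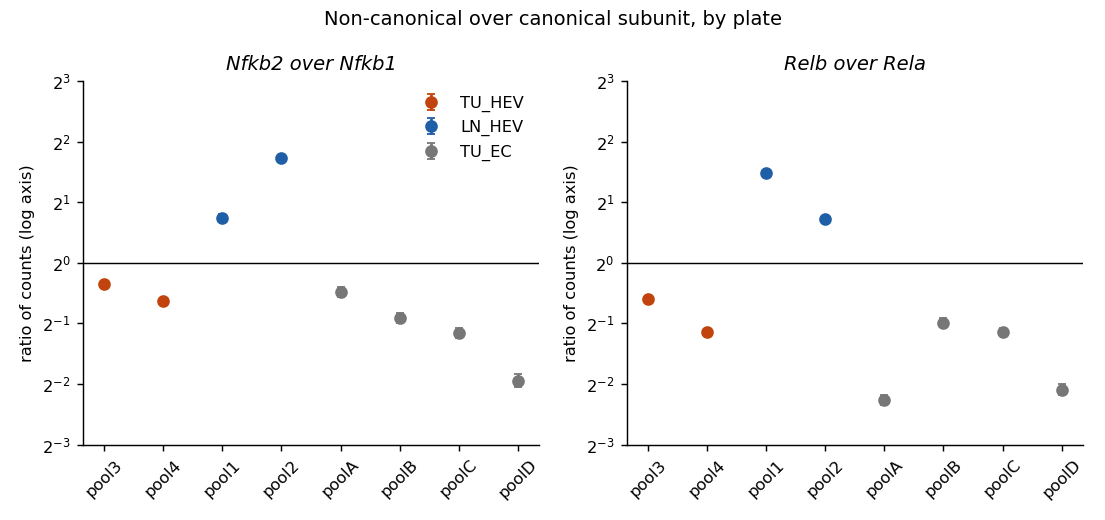
Counts of Nfkb2 per count of Nfkb1 (left) and of Relb per count of Rela (right) for each plate, on a log axis, with exact 95% counting intervals. The line marks a ratio of 1. The LN_HEV plates lie above it at 1.68 and 3.31 and at 2.78 and 1.65, and all TU_HEV and TU_EC plates below it.

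Within cells, more of the genes of the route were found in the median cell of LN_HEV than in that of the other groups. After thinning, the median cell had counts of 2 of the 8 members in TU_HEV, 4 in LN_HEV and 1 in TU_EC. Thinned counts included ribosomal RNA, which took 8.09%, 13.5% and 25.3% of the group counts before thinning. The depth left for other genes was therefore not equal between groups. At least 4 members were found in 31.6% of TU_HEV cells, 54.9% of LN_HEV cells and 7.67% of TU_EC cells, and none in 11.2%, 0.704% and 18.7%. Cells with at least 6 members made up 8.16% of TU_HEV, 4.23% of LN_HEV and 0.333% of TU_EC, and TU_HEV was above LN_HEV at this cut alone. With at least 5 members the shares were 14.3% in TU_HEV and 26.8% in LN_HEV, and with at least 7 they were 1.02% and 1.41%. Few cells reached the highest cuts. Relb and Nfkb2 were found together in 18.4% of TU_HEV cells (11.3 to 27.5%), 43.7% of LN_HEV cells (35.4 to 52.2%) and 7% of TU_EC cells (4.39 to 10.5%). By plate these shares were 18.0% and 18.8% in TU_HEV, 46.8% and 41.3% in LN_HEV, and 8.96%, 8.86%, 8.54% and 1.39% in TU_EC, where poolD stood below the other plates.

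**Figure D5:**
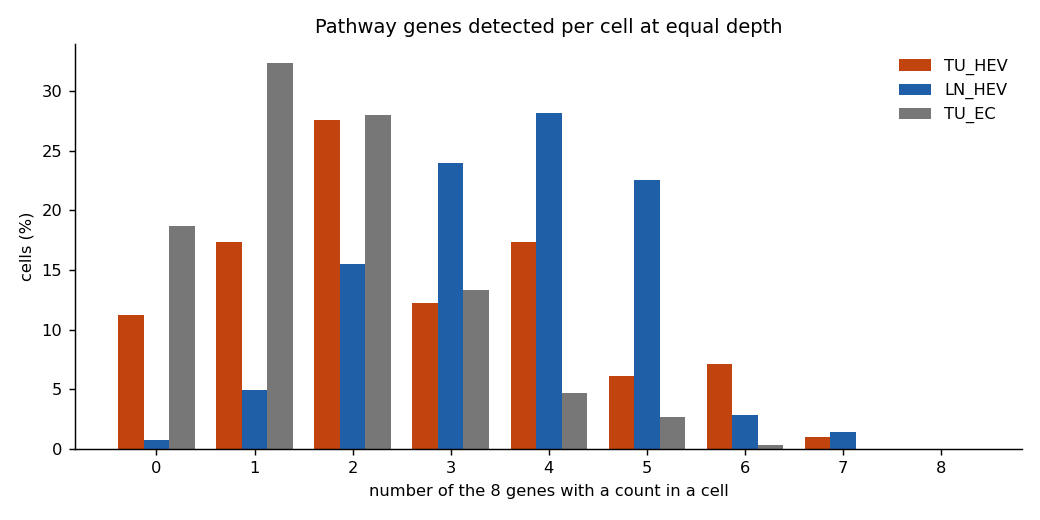
Percent of cells by the number of the 8 genes with a count, after thinning each cell to 100000 counts. Bars are the 3 groups. The most frequent number is 2 in TU_HEV (27.6% of cells), 4 in LN_HEV (28.2%) and 1 in TU_EC (32.3%).

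From cell to cell within a plate the members moved together little. Spearman coefficients between members, taken plate by plate on thinned counts, had a median of 0.11 in TU_HEV, 0.04 in LN_HEV and 0.04 in TU_EC, and ran between -0.24 and 0.33. They are descriptions of sparse counts and carry no test. Within TU_HEV, on the same thinned counts, cells with a count of Chst4 were set beside cells without one (41 and 57 cells). Nfkb2 was found in 58.5% of the Chst4-positive and 36.8% of the Chst4-negative cells, Birc2 in 58.5% and 35.1%, and Relb in 41.5% and 26.3%. For each of these the positive cells had the higher share on both plates, as with Nfkb2 at 60.0% and 32.0% on pool3 and 56.3% and 40.6% on pool4. Ltbr (63.4% and 52.6%) and Traf2 (22.0% and 19.3%) also had the higher share in the positive cells over both plates, though not on each plate. Traf3 went the other way, found in 7.32% of the positive and 22.8% of the negative cells, as did Map3k14 (12.2% and 15.8%) and Chuk (24.4% and 29.8%), which were each level on 1 of the plates. On thinned counts, where each cell weighs alike, Nfkb2 had 96.6 CPM in the positive and 80.5 CPM in the negative cells. Map3k14, which few cells carried, had 10.0 and 36.3 CPM. These values are not on the scale of the summed group levels above.

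Of the 7 genes listed for ligands of these receptors, Ltb, which encodes lymphotoxin beta, was the one above 10 CPM in a group. Ltb had no count on either TU_HEV plate, 64.5 and 79.9 CPM on the LN_HEV plates, and 0, 3.64, 4.45 and 0 CPM on the TU_EC plates. Against the floor of 3 counts over the group, Ltb was at least 3592-fold lower in TU_HEV than in LN_HEV. It was 33.6-fold higher in LN_HEV than in TU_EC (30.6 to 36.8). The summed level of 6 leukocyte markers by plate was 0 to 3.33 CPM in TU_HEV, 14.7 to 15.0 CPM in LN_HEV and 0 in TU_EC. Of the 6 markers, 5, 1 and 6 were at 0 counts. This sum was also highest in LN_HEV. The TU_EC plates with Ltb had no count of these markers. Ptprc, which encodes CD45, had 9.79 CPM in LN_HEV and no count in the tumour groups. The summed level of 5 B and T cell markers by plate reached 0.0155 CPM in TU_HEV, 9.57 CPM in LN_HEV and 0.0794 CPM in TU_EC. Ltb counts lay in 66 LN_HEV cells. The 9 LN_HEV cells with any of these 11 markers at 10 CPM held 3.80% of the Ltb counts. Ltb had 43.6 CPM in these cells and 75.8 CPM in the cells without a marker. The filter had allowed fewer than 3 of the 6 leukocyte markers at 10 CPM in a cell, and the source of the Ltb counts was not tested.

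Among 5 other receptors that act through TRAF3 and NIK, 4 were tested. Of these, 3 were at least 2-fold higher in TU_HEV than in LN_HEV in every plate pair, against 11.3% of all genes. Cd40, the receptor for CD40 ligand, had 18.0 and 11.6 CPM on the TU_HEV plates and no count on either LN_HEV plate, at least 691-fold higher in TU_HEV, with 42.9 to 64.4 CPM on the TU_EC plates. Tnfrsf12a, the receptor for TWEAK, was 12.0-fold higher in TU_HEV than in LN_HEV, at 36.5 and 3.03 CPM. Its log2 ratio of 3.59 was 1.83 with the 11 left-out libraries kept. Tnfrsf11a, which encodes RANK, the receptor for RANK ligand, had 65.6 and 52.3 CPM on the TU_HEV plates, 22.2 and 25.0 CPM on the LN_HEV plates, and 0.276 to 8.55 CPM on the TU_EC plates. It was 2.44-fold higher in TU_HEV than in LN_HEV and 12.5-fold higher than in TU_EC. Cd40 was 3.69-fold lower in TU_HEV than in TU_EC, so the receptors of the route did not share an order of the groups.

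Of 7 other regulators of NIK, none differed 2-fold between the HEV groups, where 27.1% of all genes were higher and 15.2% lower in TU_HEV. In TU_HEV 3 were at least 2-fold higher than in TU_EC, against 25.7% of all genes. In LN_HEV 4 were at least 2-fold higher than in TU_EC, against 21.9%. Birc3, the neighbour and close relative of Birc2, had 164.3 CPM in TU_HEV, 147.02 in LN_HEV and 30.3 in TU_EC. Traf1, a TRAF that NF-kB is known to induce, had 107.8, 64.9 and 14.8 CPM, 7.28-fold higher in TU_HEV than in TU_EC. Birc3 thus shared with Birc2 the step between HEV and TU_EC but was level between the HEV groups.

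The canonical genes gave a mixed picture between the HEV groups. Of 11 tested, 4 were at least 2-fold higher in TU_HEV than in LN_HEV, against 27.1% of all genes, and 1 was lower, against 15.2%. Their median log2 ratio was 0.12. Tnfaip3, which encodes A20, a feedback inhibitor of NF-kB, had 439.6 and 366.8 CPM on the TU_HEV plates, 57.95 and 107.6 CPM on the LN_HEV plates, and 98.05, 38.5, 22.4 and 40.1 CPM on the TU_EC plates. Nfkbia, which encodes the inhibitor IkB-alpha, was 2.38-fold higher in TU_HEV than in LN_HEV and 3.00-fold higher than in TU_EC, at 2233, 938.7 and 743.3 CPM. Rel, another canonical subunit, was 13.5-fold higher in TU_HEV than in LN_HEV, at 42.5 and 3.15 CPM, and its log2 ratio of 3.76 was 1.95 with the 11 left-out libraries kept. Tnip1, which encodes a partner of A20, was 2.32-fold lower in TU_HEV than in LN_HEV, at 85.1 and 197.2 CPM, in the direction of Relb and Nfkb2.

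Of the genes known as targets of the lymphotoxin receptor in lymphoid stroma and HEVs, several differed between TU_HEV and LN_HEV by much more than any member. Of 9 tested, 5 were at least 2-fold lower in TU_HEV than in LN_HEV in every plate pair, against 6.8% of all genes. By the same rule 2 were higher, against 11.3%. Glycam1, a HEV mucin, had 177.6 and 88.3 CPM on the TU_HEV plates and 70555 and 60643 CPM on the LN_HEV plates, and was 506.4-fold lower in TU_HEV. Fut7, a fucosyltransferase for selectin ligands, was 58.0-fold lower in TU_HEV than in LN_HEV, at 18.4 and 1067 CPM, and had no count in TU_EC. Ccl21a, a homing chemokine that lymphatic vessels also make, had 0.376 CPM in TU_HEV, 18922 in LN_HEV and 1126 in TU_EC, and reads of its near-identical copies may be counted to it. Like Ccl21a, the lymphatic markers Pdpn and Prox1 had a higher group level in TU_EC than in TU_HEV, but unlike it they were lowest in LN_HEV. Pdpn had 2.50, 0 and 24.3 CPM and Prox1 2.85, 0.514 and 27.1 CPM in TU_HEV, LN_HEV and TU_EC. The source of the Ccl21a counts was not tested. Cxcl12, a chemokine of many endothelial cells, was 12.9-fold higher in TU_HEV than in LN_HEV, with a log2 ratio of 3.69 that was 1.65 with the 11 left-out libraries kept. Madcam1, a mucosal addressin, had 37.1 and 1.42 CPM on the TU_HEV plates, 30.9 and 20.1 CPM on the LN_HEV plates, and 0 to 3.04 CPM on the TU_EC plates, and its TU_HEV plates overlapped both other groups. Icam1, an adhesion molecule for leukocytes, had a log2 ratio of 0.94 between TU_HEV and LN_HEV and Madcam1 one of -0.51, both within the range of the members (-1.23 to 1.16). Differences of the size of Glycam1 or Fut7 were found in none of the members.

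Patterns over the 8 plates were compared with those of 7110 genes by Pearson's coefficient of log2(CPM + 1), as a description over plates that share groups. Closest to Ltbr were Wipi2 (0.986), Adgrl2 (0.967) and Adgrl4 (0.965), the last an adhesion receptor of endothelial cells, at 512.7 CPM in TU_HEV, 254.2 in LN_HEV and 416.2 in TU_EC. Closest to Relb were Pdk4 (0.987), Relt (0.983) and Cd55 (0.981). Closest to Nfkb2 were C1ra (0.988), Phyhd1 (0.987) and Cd63 (0.983). No gene stood in more than 1 of these lists.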

How the data were processed

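Per the labels, single cells of 3 sorted gates were sequenced with Smart-seq2 as single-end reads, with no molecular identifiers. The deposited files hold raw counts of reads per gene and library, which the authors made with the tools in the submitters' processing notes: Subread 1.4.6-p2, STAR 2.4.1b and FastQC 0.11.4, with mm10 (GRCm38). Annotation and strand setting: not given in the sources consulted, so reads of genes overlapping a member (such as Psd, opposite Nfkb2, at 3.60 CPM in TU_HEV, 6.69 in LN_HEV and 1.27 in TU_EC) may be counted to either.

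Of 51826 features per file, 92 repeated symbols were summed. Cells needed 50000 counts, 1000 genes, at most 30% mitochondrial counts, 2 of 5 endothelial genes and fewer than 3 of 6 genes of each contaminant list at 10 CPM. This kept 98 TU_HEV, 143 LN_HEV (after 11 libraries were left out) and 303 TU_EC cells, with 146215450, 144085963 and 221773977 counts. No doublet caller was run, since cells were sorted singly. Counts were summed per group and plate, scaled to CPM and compared as ratios with exact 95% intervals (counting error only; a group at 0 was set to 3 counts). The labels do not say whether plates came from separate animals. Shares used cells thinned to 100000 counts (142 LN_HEV and 300 TU_EC cells were deep enough). Thinning included ribosomal RNA, so the depth in other genes differed between groups. All members were named, and per list and comparison up to 4 genes of the largest ratio at 2-fold and 10 CPM or more, of which some are printed. Vcam1 and Icam1 were named outside this rule. For Ltbr, Relb and Nfkb2 the 3 closest genes over plates were named. Members and lists were chosen with earlier results of these data known. Python 3.11.15 with numpy 2.4.6, scipy 1.17.1 and pandas 2.3.3 was used, the ratio calls were tested on simulated data, and gene positions came from GENCODE release M21. Alternatives were other scalings, cell filters, weights and depth, the 11 libraries kept, and each plate left out.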

Additional observations from a re-analysis of the deposited data

How the results depend on the processing

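No member ratio of at least 2-fold changed its sign under the alternatives run. Apart from leaving out plates, 95.2% of the member ratios kept their sign, and 9 of those at least 2-fold no longer were. Between TU_HEV and LN_HEV, the number of members at least 2-fold apart was 3, and it was 1 with the 11 left-out libraries kept, 5 with size factors and 5 without the 20 highest features. The median log2 ratio was -1.07 with size factors and -1.12 without the 20 highest features, and it ran from -0.92 to -0.38 when a plate was left out (-0.38 without pool2). Between TU_HEV and TU_EC, the median was 0.52 with size factors, 0.64 without ribosomal RNA and 0.53 without the 20 highest features. The number of members 2-fold apart was 4, and 2 with size factors or without the 20 highest features. Between LN_HEV and TU_EC no median or count moved beyond the spread. The 20 highest features held 18.7%, 35.4% and 39.0% of counts in TU_HEV, LN_HEV and TU_EC. The cause of these shifts was not tested.

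Chosen after seeing the data, 3 alternatives left out cells with a leukocyte or lymphocyte marker, cells with lymphatic genes, and 2 further pool1 libraries in which nearly all counts of a TU_HEV library recur. Without the marker cells and without the 2 libraries, the number of members 2-fold apart between TU_HEV and LN_HEV was 3. Lymphatic genes removed no cell of those groups and 8 of TU_EC, and the number between TU_HEV and TU_EC was then 5 instead of 4. No paired analysis was possible because the labels give no numbers shared between groups. With 1 sample a group, animals and batches cannot be told apart from the groups.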
